A study of Mus musculus with 32 samples.

Results

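The Cyp2 and Cyp4 families of the mouse kidney were followed through 5 days of cisplatin injury in both sexes. The 49 genes described here are the protein-coding rows of the gene table whose symbol starts with Cyp2 or Cyp4 and a letter and whose mean raw count over the 32 libraries was at least 10. They were taken from 69 such protein-coding genes, 97 rows of any type with these names, and 54532 rows in all. The rule used only names and overall abundance. Cyp2t4 (mean count 11.4) and Cyp2d40 (11.6) were the members just inside the minimum, and Cyp2a22 (8.41) and Cyp2c38 (5.47) were just outside it. By subfamily the members were 10 Cyp2c, 7 Cyp2j, 6 Cyp2d, 6 Cyp4a, 6 Cyp4f, 3 Cyp2a, 3 Cyp2b and 1 each of Cyp2e, Cyp2f, Cyp2r, Cyp2s, Cyp2t, Cyp2u, Cyp4b and Cyp4v.

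Kidney RNA was sequenced from 8 groups of 4 C57BL/6 mice, male and female, aged 6 to 8 weeks. Mice at Day 2, Day 3 and Day 5 had received cisplatin, a platinum drug toxic to the renal tubule, as a single intraperitoneal injection of 20 mg/kg. The Day 0 mice were the healthy reference, as the study calls them, although the label of the female Day 0 samples carries the cisplatin treatment and that of the male ones carries none. Each library is given by the study as 1 mouse, and values below are listed in the order mouse 1 to mouse 4.

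Cytochromes P450 of families 2 and 4 are haem enzymes, mainly of the endoplasmic reticulum. They insert 1 oxygen atom into a substrate with electrons passed on by the reductase Por. Family 4 enzymes mostly hydroxylate the far (omega) end of fatty acids, arachidonic acid included, and family 2 enzymes make epoxides of arachidonic acid or oxidise drugs, solvents and steroids. In the rodent kidney most of this activity lies in the proximal tubule, and several members are known to differ between males and females and to respond to the fatty acid receptor Ppara.

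Cytochromes P450 share a haem-binding site, and its coding stretch shows how close some of them are to each other, which matters for how reads are assigned. The 30 bases below code for the 10 residues that hold the cysteine bound to the haem iron, with the cysteine codon in capitals. They are shown 5′ to 3′ for the members that carry the results, from GENCODE M21 transcripts on GRCm38.
Cyp4a10: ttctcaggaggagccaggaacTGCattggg
Cyp4a31: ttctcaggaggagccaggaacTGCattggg
Cyp4a14: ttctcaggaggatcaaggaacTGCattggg
Cyp4a12a: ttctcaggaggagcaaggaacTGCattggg
Cyp4a12b: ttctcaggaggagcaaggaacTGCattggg
Cyp4b1: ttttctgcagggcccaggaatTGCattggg
Cyp2j13: ttttcaatgggaaagcgagctTGCctcgga
Cyp2e1: ttttctgcaggaaagcgcgtgTGTgttgga
The stretch was found in 47 of the 49 members, in 36 distinct forms, and in each of the 47 it was split over 2 exons. For Cyp4a10 it lay at chr4:115529502-115529518 and chr4:115532531-115532543, for Cyp4a31 at chr4:115574950-115574966 and chr4:115577936-115577948 and for Cyp4a12a at chr4:115328986-115329002 and chr4:115331834-115331846, all on the plus strand. Cyp4a12b carried it at chr4:115435240-115435256 and chr4:115438057-115438069 on the plus strand. On the minus strand it lay at chr4:115489789-115489805 and chr4:115487299-115487311 for Cyp4a14, at chr4:115625646-115625662 and chr4:115625216-115625228 for Cyp4b1 and at chr4:96056558-96056567 and chr4:96045609-96045628 for Cyp2j13. That of Cyp2e1 lay at chr7:140773762-140773771 and chr7:140774558-140774577 on the plus strand. Cyp4a10 and Cyp4a31 were identical here and 96.6% identical over their coding sequence, and Cyp4a12a and Cyp4a12b were identical here and 98.5% identical over the coding sequence. Of the 150-base windows of the Cyp4a12a transcript, the length of 1 read, 25.6% occurred unchanged in another Cyp2 or Cyp4 gene, against 4.34% for Cyp4a10, 4.20% for Cyp4a31 and 4.22% for Cyp2a4. No shared window was found for Cyp4a14, Cyp4b1, Cyp2j13 or Cyp2e1. How reads that fit 2 genes were counted is not given in the sources used here, so the split between Cyp4a12a and Cyp4a12b in particular is uncertain.

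Libraries held 16502107 to 35961325 counts, and several libraries and the male Day 5 group stood apart in ways that touch the members. Female Day 0 mouse 2 held hepatocyte transcripts, with 253608 Alb (albumin) counts, 91.7% of all Alb counts in the series, in a library with 4.58% of the series' depth. Female Day 0 mouse 1 carried 221 counts of Y-linked genes, against 0 in each female library after cisplatin, and mice 2, 3 and 4 of that group carried 5, 44 and 66. Male Day 5 mouse 1 held 4153 Xist counts beside 387 Y-linked counts, where the other male libraries held 0 to 260 Xist counts. Whether these libraries hold RNA of both sexes was not tested, and the comparisons between the sexes at Days 0 and 5, the interactions and the changes from Day 0 in females and to Day 5 in males rest in part on them. The remaining male Day 5 mice had 78.9% to 79.8% of their counts in mitochondrial genes, and mouse 1 had 42.5%, against 6.46% to 23.97% in the other male libraries. Female Day 5 mouse 2 had 77.9%, against 4.49% to 31.6% in the other female libraries, and it had the lowest FPKM sum of any female library over the 35 members described below (897 FPKM). Mouse 4 of both Day 0 groups stood apart from its group. Male Day 0 mouse 4 had 23.97% mitochondrial counts, against 6.46% to 10.7% in the other males of Day 0, an adipocyte marker sum of 1506 FPKM against 268 to 518 FPKM, 242 Xist counts against 0 to 50, and 71.0 FPKM of the proximal tubule carrier Slc7a13 against 329.7 to 354 FPKM. In females, Day 0 mouse 4 had 19.7% mitochondrial counts against 4.49% to 10.1%, and 4404 FPKM of the proximal tubule transcript Kap against 22096 to 54818 FPKM. The member Cyp2a4 was lowest in both, at 48.7 FPKM against 206 to 271 FPKM in the other males and 18.9 FPKM against 94.8 to 116 FPKM in the other females. Mouse 3 of both Day 0 groups had the highest Kap of its group, at 113880 FPKM in males and 54818 FPKM in females. Female Day 2 mouse 1 held 2326 FPKM over the 35 members, against 1089 to 1262 FPKM in the rest of its group. Its proximal tubule carrier Slc34a1 lay at 1070 against 261 to 616 FPKM, and its collecting duct markers summed to 898 against 367 to 420 FPKM. The part of these differences in the members' results was not tested.

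Female Day 0 mouse 2 held most of the counts of 14 members. Each of these 14 had over 50% of all its counts in female Day 0 mouse 2, from 74.0% for Cyp2c68 to 95.6% for Cyp2b13, a threshold chosen after the values were seen. They were 9 of the 10 Cyp2c genes (all but Cyp2c23), Cyp2a12, Cyp2b9, Cyp2b13, Cyp2d10 and Cyp2d40, and the next member down was Cyp4f14 with 34.6%. Their FPKM (fragments scaled to gene length and library size by the authors) summed to 324.5 in that library and to 0 to 12.8 in the other 31, the second highest being female Day 3 mouse 2. Female Day 3 mouse 2 and female Day 0 mouse 3 were also the libraries with the next highest Alb, at 112 and 65.8 FPKM, against 2926 FPKM in female Day 0 mouse 2. Other defining liver transcripts were high in female Day 0 mouse 2 as well, at 31340 counts for Ahsg, 3216 for Cps1, 1253 for Cyp1a2 and 114 for Cyp7a1. The part of hepatocyte RNA in the level of each of the 14 was not tested gene by gene.

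**Figure D1:**
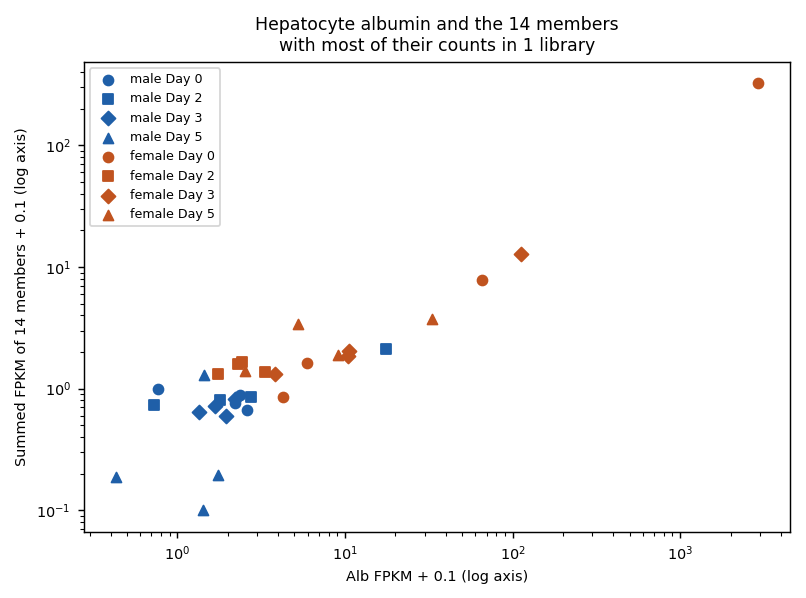
Summed FPKM of the 14 members with over 50% of their counts in female Day 0 mouse 2 (vertical, log axis) against Alb FPKM (horizontal, log axis), 1 point per mouse, 0.1 added to both, blue for males and orange for females, with a marker shape for each day. Female Day 0 mouse 2 stands at the top right, and the other 31 libraries hold a sum of 12.8 FPKM or less. The 14 were picked for their counts in that library, so its high sum follows from the choice.

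Cyp2b13, a liver enzyme known as female-predominant, shows the pattern at its plainest, with 1415 of its counts in that library and 0, 20.4, 0.916 and 0 FPKM in the female Day 0 mice. It was listed at 0 in all 16 male libraries. Without female Day 0 mouse 2, 39 members would reach a mean count of 10, and 10 of the 14 would drop below it. Of the 14, 8 had counts too low to pass edgeR's filter in any comparison (Cyp2b13, Cyp2d40 and 6 Cyp2c genes), and Cyp2d10 was the only 1 called in any. Levels below are those of the other 35 members, except where 1 of the 14 is named.

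Among the 35, the level per length at rest was set by few genes. In healthy males Cyp4b1 led with 1439 ± 333 FPKM (SD, n = 4), followed by Cyp2e1 with 654 ± 181 FPKM and Cyp2j5 with 375 ± 72.7 FPKM. In healthy females Cyp2d26 led with 293 ± 62.2 FPKM, followed by Cyp2j5 with 201 ± 41.6 FPKM, Cyp4b1 with 125 ± 78.8 FPKM, Cyp2e1 with 114 ± 76.1 FPKM and Cyp4a14 with 113 ± 20.2 FPKM. In females each of these genes overlapped with its neighbour in that order, and in males Cyp2e1 overlapped with Cyp2j5 while Cyp4b1 stood above both in all 4 mice. Female Day 0 mouse 2, the library with hepatocyte transcripts, was the highest female for Cyp2d26 (379.6 against 243 to 295 FPKM) and Cyp2e1 (213 against 27.8 to 111 FPKM). It was not the highest for Cyp2j5, Cyp4b1 or Cyp4a14, and its part in these means was not tested. The 35 together summed to 2467 to 3729 FPKM in the male Day 0 mice and to 1114 to 1419 FPKM in the female Day 0 mice, without overlap.

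Genes were tested with edgeR's quasi-likelihood test on raw counts, and called where the Benjamini-Hochberg adjusted p was below 0.05 with an absolute log2 fold change over 1.5. In whole-kidney RNA, fewer cells of a type and less of a transcript per cell cannot be told apart, here and in all that follows. At Day 0, 1 member of the 35 tested was called higher in males and 2 lower, where 0.175% of all genes tested were called higher and 0.187% lower. Cyp4b1 (chr4:115624725-115647723, minus strand), which activates small plant toxins and hydroxylates short fatty acids, measured 1625, 1482, 1691 and 957 FPKM in males. Females held 241, 77.0, 76.0 and 106 FPKM, so that the lowest male lay above the highest female (log2 fold change 3.53, SE 0.48, edgeR adjusted p = 0.0230). Cyp4a14 (chr4:115486200-115496142, minus strand), a fatty acid omega-hydroxylase known as a Ppara target, went the other way.
Males held 2.66, 4.49, 3.79 and 16.1 FPKM of Cyp4a14 and females 98.6, 105, 143 and 104 FPKM, again without overlap (log2 fold change -4.05, SE 0.58, edgeR adjusted p = 0.0284). Mouse 4 was the highest of the males by a wide margin. Cyp2d26 (chr15:82790101-82794294, minus strand) was also lower in males, with 80.3, 63.7, 104 and 104 FPKM against 253, 379.6, 295 and 243 FPKM (log2 fold change -1.73, SE 0.25, edgeR adjusted p = 0.0307). These calls had little room: Cyp4b1 lost its call without male mouse 1, 2 or 3 or female mouse 2 or 3, and Cyp4a14 and Cyp2d26 lost theirs without any 1 mouse but number 4 of either sex. The edgeR adjusted p then reached 0.118 for Cyp4b1, 0.140 for Cyp4a14 and 0.151 for Cyp2d26. All 3 kept their direction in each of the 8 fits. All 3 calls were also lost with female mice 1 and 2 both left out (edgeR adjusted p = 0.206, 0.285 and 0.295), and that of Cyp2d26 in 1 fit over all 8 groups (edgeR adjusted p = 0.132). Other fits called more than 3 members here: 13 in the fit over all 8 groups, 9 by DESeq2 and 8 with mouse number as a replicate block, with 1.78%, 1.19% and 0.754% of all genes. Of these 6, 5 and 5 were higher in males and 7, 4 and 3 lower. Of the 13, 5 were lower in males and among the 14 members with most counts in female Day 0 mouse 2.

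After cisplatin the male excess of 4 members was called at both Day 2 and Day 3, in mice that share no library with Day 0. At Day 2, 4 of 37 members tested were called higher in males and 0 lower, against 0.506% and 0.307% of all genes. At Day 3, 4 of 38 were higher and 2 lower, against 0.894% and 1.04%. Cyp2j13 (chr4:96027534-96077546, minus strand), of the arachidonate epoxygenase family, showed the widest gap.
It measured 37.1, 42.1, 47.0 and 35.4 FPKM in males and 0.445, 0.473, 0.434 and 0.264 FPKM in females at Day 2 (log2 fold change 6.62, SE 0.23, edgeR adjusted p = 5.50e-07). At Day 3 the values were 27.8, 45.1, 29.8 and 46.1 FPKM in males and 0.162, 0.0898, 0.240 and 0.213 FPKM in females (log2 fold change 7.70, SE 0.34, edgeR adjusted p = 8.16e-06). Every male mouse stood far above every female mouse on both days. At Day 0 the male values were 65.8, 55.6, 48.5 and 41.2 FPKM and the female ones 6.93, 0.242, 0 and 0.979 FPKM, also without overlap, but the difference was not called (log2 fold change 4.69, SE 1.36, edgeR adjusted p = 0.290). The high female value came from mouse 1, the library with 221 Y-linked counts, and the part of those counts in the result was not tested.

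Cyp4a12a (chr4:115299046-115332815, plus strand), the omega-hydroxylase known to make 20-hydroxy arachidonic acid in male mouse kidney, measured 26.8, 5.89, 18.3 and 5.45 FPKM in males and 1.59, 0.472, 0.357 and 0.702 FPKM in females at Day 2 (log2 fold change 4.18, SE 0.64, edgeR adjusted p = 0.0103). At Day 3 males held 11.9, 17.4, 7.93 and 14.6 FPKM and females 1.38, 0.348, 2.94 and 2.28 FPKM (log2 fold change 2.88, SE 0.56, edgeR adjusted p = 0.0119). No female reached the lowest male on either day. Its near copy Cyp4a12b was not called, at log2 fold changes of 1.001 and 0.05. Cyp2e1 (chr7:140763739-140774987, plus strand), which oxidises ethanol, acetaminophen and small solvents, measured 585, 344, 421 and 184 FPKM in males at Day 2 and 101, 41.3, 59.7 and 68.5 FPKM in females (log2 fold change 2.499, SE 0.37, edgeR adjusted p = 0.00868). The values at Day 3 were 500.0, 538, 457 and 445 FPKM and 66.6, 72.4, 116 and 113 FPKM (log2 fold change 2.38, SE 0.20, edgeR adjusted p = 0.000131). The groups did not overlap, and at Day 0 the fold was alike in size but not called (log2 fold change 2.52, SE 0.56, edgeR adjusted p = 0.133).
For Cyp4b1 the male values were 866, 762, 853 and 542 FPKM at Day 2 and 457, 773, 655 and 824 FPKM at Day 3. The female ones were 269, 121, 111 and 96.5 FPKM and 104, 71.1, 130.3 and 156 FPKM, all below the males of the same day (log2 fold change 2.33, SE 0.34, edgeR adjusted p = 0.00825 at Day 2, and log2 fold change 2.54, SE 0.27, edgeR adjusted p = 0.000811 at Day 3). Cyp4b1 and Cyp2j13 kept their calls whichever single mouse was left out on both days, Cyp4a12a and Cyp2e1 did so at Day 3, and at Day 2 Cyp4a12a lost its call without female mouse 2 (edgeR adjusted p = 0.0558) and Cyp2e1 without female mouse 3 (edgeR adjusted p = 0.0511). Cyp4a12a also lost its call at Day 2 without a filter on low counts (edgeR adjusted p = 0.0979), and at Day 3 with mouse number as a replicate block and in 1 fit over all 8 groups (edgeR adjusted p up to 0.0816). Of 12 proximal tubule markers 9 were higher in males at Day 2 and 11 at Day 3, with 1 and 2 called by edgeR. Of 6 injured-tubule markers 5 were lower in males at Day 2 and 6 at Day 3, with 0 and 3 called. The part of these markers in the male excess was not tested.

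**Figure D2:**
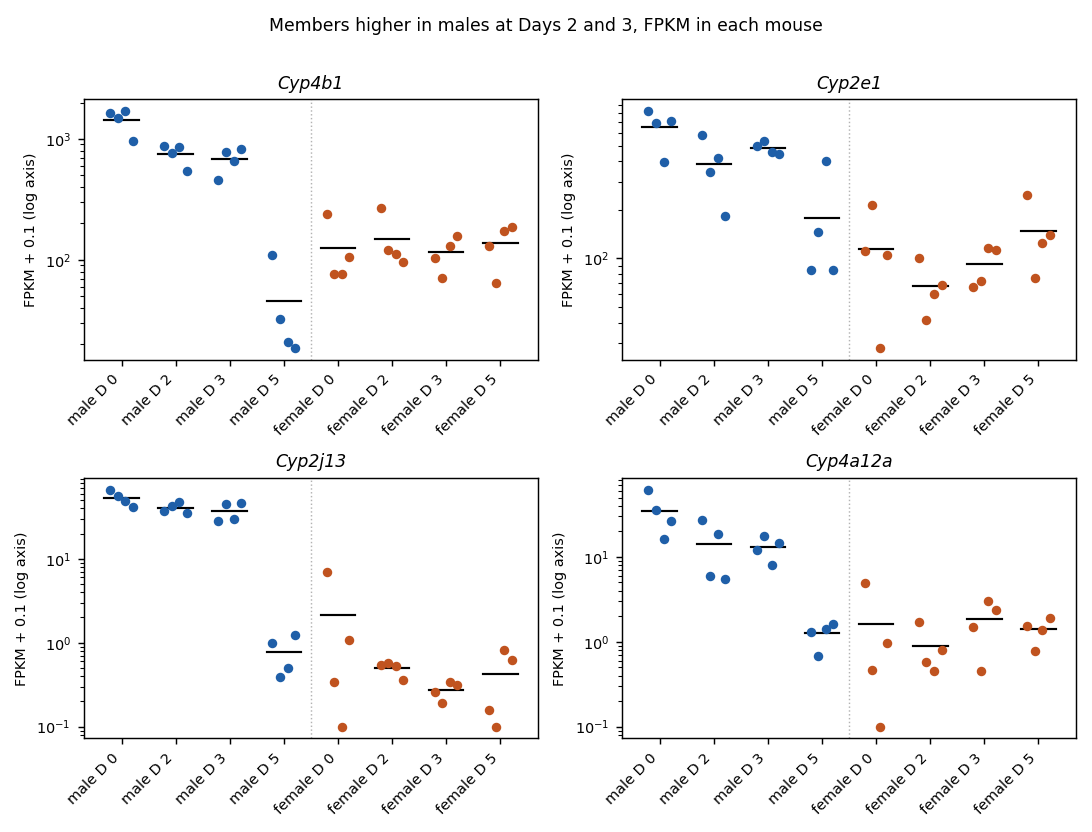
FPKM of Cyp4b1, Cyp2e1, Cyp2j13 and Cyp4a12a in each mouse (points; vertical log axis, 0.1 added), males in blue and females in orange at Days 0, 2, 3 and 5 (D), with the group mean as a line. At Days 2 and 3 the male points lie above the female ones in all 4 panels, and at male Day 5 Cyp2j13 lies between 0.296 and 1.14 FPKM.

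The 2 members lower in males at Day 3 were low in both sexes. Cyp4f14 (chr17:32905071-32917342, minus strand), a leukotriene omega-hydroxylase, measured 0.796, 0.516, 0.601 and 0.570 FPKM in males and 1.61, 3.15, 1.76 and 1.51 FPKM in females (log2 fold change -1.71, SE 0.26, edgeR adjusted p = 0.00270). Cyp2d10 (chr15:82402846-82407195, minus strand), 1 of the 14 members with most counts in female Day 0 mouse 2, measured 0.247, 0, 0.112 and 0.0693 FPKM in males and 0.461, 1.24, 0.523 and 0.742 FPKM in females (log2 fold change -2.81, SE 0.63, edgeR adjusted p = 0.0138). Neither pair of groups overlapped, female mouse 2 was the highest for both, and without that mouse the log2 fold change of Cyp4f14 was -1.41, short of the fold threshold. In 1 fit over all 8 groups both lost their calls, Cyp2d10 also with the replicate block, at edgeR adjusted p up to 0.572 for Cyp2d10 and 0.322 for Cyp4f14. In the same comparison 4 of the 7 tested hepatocyte markers were called lower in males and 0 higher, Alb among them (log2 fold change -4.34, SE 1.21, edgeR adjusted p = 0.0443), and their part in these 2 results was not tested.

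At Day 5 no member was called between the sexes by edgeR (12 of 33 tested had an unadjusted p below 0.05, and DESeq2 called 2, Cyp4b1 and Cyp4f14, and 3.06% of all genes), where 0.184% of all genes were called higher in males and 0.0525% lower. The group included the male library with 4153 Xist counts, and without it 15 of 34 members were called, 1 higher and 14 lower in males, together with 7.75% of all genes. Cyp2j13 was then at 0.901, 0.296, 0.395 and 1.14 FPKM in males and 0.0593, 0, 0.714 and 0.525 FPKM in females, with overlap. Cyp4b1 stood at 109, 32.2, 20.8 and 18.6 FPKM in males and 130.2, 63.8, 173 and 186 FPKM in females, males being the lower group except for mouse 1 (log2 fold change -1.61, SE 0.60, edgeR adjusted p = 0.188).

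In males, Cyp4a14, Cyp4a10 and Cyp2d22 rose by Day 3. At Day 2, edgeR called 0 of 35 members (10 had an unadjusted p below 0.05, and DESeq2 called 1, Cyp4a14, and 2.92% of all genes), against 0.517% of all genes called higher and 0.199% lower. At Day 3, 3 of 34 members were called higher and 0 lower, against 1.87% and 1.84% of all genes. The median log2 fold change of the members tested was -0.08 at Day 3, and that of all genes 0.02.
Cyp4a14 rose from the Day 0 values given above to 216, 29.8, 136 and 50.6 FPKM at Day 3 (log2 fold change 3.999, SE 0.82, edgeR adjusted p = 0.0149). All 4 mice lay above the highest Day 0 mouse, and they spread widely among themselves. Cyp4a10 (chr4:115518264-115533649, plus strand), an omega-hydroxylase also known as a Ppara target, went from 54.7, 79.6, 49.1 and 46.2 FPKM to 297, 107, 236 and 131 FPKM (log2 fold change 1.75, SE 0.35, edgeR adjusted p = 0.0139). Cyp2d22 (chr15:82370527-82380260, minus strand), a drug-oxidising enzyme, went from 5.14, 3.39, 4.46 and 5.25 FPKM to 20.5, 9.37, 14.1 and 8.25 FPKM (log2 fold change 1.52, SE 0.30, edgeR adjusted p = 0.0132). In both, every Day 3 mouse was above every Day 0 mouse, and in all 3 genes mice 1 and 3 were the highest. The 6 injured-tubule markers summed to 848, 479.9, 581 and 326 FPKM in these mice, with mice 1 and 3 again the highest, against 319.9 to 469 FPKM at Day 0, and 1 of the 6 was called higher. Of the 6 adipocyte markers 4 were called lower, with sums of 146 to 203 FPKM against 268 to 1506 FPKM, and 0 of 12 proximal tubule markers were called by edgeR (6 with an unadjusted p below 0.05, DESeq2 1). The part of these markers in the members' results was not tested. Cyp4a14 lost its call without Day 3 mouse 3 (edgeR adjusted p = 0.0525), Cyp4a10 without mouse 1 or 3, and Cyp2d22 without mouse 1 or 3 or Day 0 mouse 2 or 3. With mouse number as a replicate block 0 members were called at male Day 3. Without Day 0 mouse 4, 1 member was called at male Day 2 and 5 at Day 3, with 2.89% and 5.93% of all genes, and of the 5 the same 3 were higher and 2, Cyp2a4 and Cyp4a12a, were lower. With an absolute log2 fold change over 1, 3 were higher and 3 lower at male Day 3 (Cyp4b1, Cyp4a12a and Cyp2u1).

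In females the members called against Day 0 by edgeR's test, run as above, were all Cyp4a genes. At Day 2, 1 of 38 members was called higher and 0 lower, against 0.532% and 0.883% of all genes. At Day 3, 3 of 41 were higher and 0 lower, against 0.51% and 1.97%, and at Day 5, 1 of 37 was higher and 0 lower, against 0.166% and 0.0615%. DESeq2 called 6, 7 and 4 members at Days 2, 3 and 5, with 5.44%, 6.12% and 2.36% of all genes, and the fit over all 8 groups 13, 10 and 9, with 6.31%, 6.49% and 3.68%. All members called higher in these fits were again Cyp4a genes, 4, 5 and 3 by DESeq2 and 4, 4 and 3 in the fit over all 8 groups. The members called lower were Cyp4f15 and Cyp4f18 at Days 2 and 3 and Cyp2d12 at Day 5 by DESeq2, and in the fit over all 8 groups 9, 6 and 6 members, of which 7, 3 and 5 were among the 14 with most counts in female Day 0 mouse 2. The 3 comparisons share their Day 0 mice, and so do the 3 in males.
Cyp4a31 (chr4:115563649-115579015, plus strand), a neighbour and near copy of Cyp4a10, measured 48.7, 42.1, 42.5 and 58.9 FPKM at Day 0 and 221, 116, 129 and 80.2 FPKM at Day 2 (log2 fold change 1.53, SE 0.33, edgeR adjusted p = 0.0474). At Day 3 it measured 181, 66.8, 176 and 228 FPKM (log2 fold change 1.76, SE 0.35, edgeR adjusted p = 0.0465). Day 0 mice did not overlap with those of either later day, mouse 2 being the lowest at Day 3. For Cyp4a10 the 4 Day 0 mice were close together at 87.6, 91.5, 83.5 and 83.7 FPKM, and the Day 3 mice held 406, 100.01, 370.0 and 479 FPKM (log2 fold change 1.97, SE 0.42, edgeR adjusted p = 0.0467). At Day 5 Cyp4a10 measured 413, 188, 294 and 314 FPKM (log2 fold change 1.81, SE 0.29, edgeR adjusted p = 0.0350). The lowest were mouse 2 of Day 3 and mouse 2 of Day 5, the latter being the library with 77.9% mitochondrial counts. All later mice exceeded all Day 0 mice. Cyp4a14 measured 497, 108, 407 and 525 FPKM at Day 3 (log2 fold change 1.78, SE 0.44, edgeR adjusted p = 0.0499), and here mouse 2 fell within the Day 0 range. This call was kept in 3 of 8 alternatives, 1 of them the lower fold threshold of 1, which cannot end a call. It was lost also with DESeq2's size factors, in 1 fit over all 8 groups and with mitochondrial genes removed. At Day 5 Cyp4a14 and Cyp4a31 missed the threshold, with adjusted p of 0.137 and 0.0603. The margins were narrow. Each call was lost without Day 0 mouse 1, 2 or 3 and without 3 of the 4 later mice, and with the replicate block or without Day 0 mice 1 and 2 together 0 members were called on any of the 3 days. Without Day 0 mouse 4 9, 9 and 6 members were called at Days 2, 3 and 5, together with 10.5%, 11.4% and 4.17% of all genes. Of these 4, 5 and 3 were higher, all Cyp4a genes but Cyp4f17 at Days 2 and 3, and 5, 4 and 3 were lower, Cyp2u1 on each day, Cyp4f15 and Cyp4f18 at Days 2 and 3, Cyp2c68 and Cyp2c69 at Day 2, Cyp4f14 at Days 3 and 5 and Cyp2d12 at Day 5. Without Day 3 mouse 2, 5 were called at Day 3, 4 higher and 1 lower (Cyp2d12), with 1.77% of all genes. Without Day 5 mouse 2, Cyp4a31 was called at Day 5 beside Cyp4a10, with 0.23% of all genes. Other markers moved in the same libraries. The 6 injured-tubule markers summed to 3240.2, 761, 1562 and 1805 FPKM in the female Day 3 mice, mouse 2 being the lowest as for Cyp4a10, and to 749 to 1669 FPKM at Day 5, against 779 to 1172 FPKM at Day 0. At Day 3 all 6 had a positive log2 fold change and 3 were called higher. Slc34a1, a carrier of the proximal tubule, lay at 237, 679 (mouse 2), 279 and 306 FPKM at Day 3 against 856 to 1232 FPKM at Day 0, and of 12 proximal tubule markers 2 were called lower and 0 higher. Adrenal cortex markers were high in some of these libraries: their FPKM summed to 6.38, 8.65, 542 and 678 in the female Day 3 mice and to 180.4 to 436 at Day 5, against 1.80 to 91.4 at Day 0. Against Day 0 edgeR called 0 of 6 tested at Day 3 and at Day 5 (3 and 4 with an unadjusted p below 0.05, DESeq2 2 and 3), and their part in these results was not tested. All hepatocyte markers tested were lower than at Day 0 on each of the 3 days (median log2 fold changes -6.43, -4.59 and -5.85). EdgeR called 0 of them and DESeq2 1 on each day, and their part was not tested either. The log2 fold changes of Cyp4a10 and Cyp4a31 at Day 3 stayed within 1.76 to 2.28 and 1.56 to 2.03 over the 8 fits that leave out 1 mouse.

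**Figure D3:**
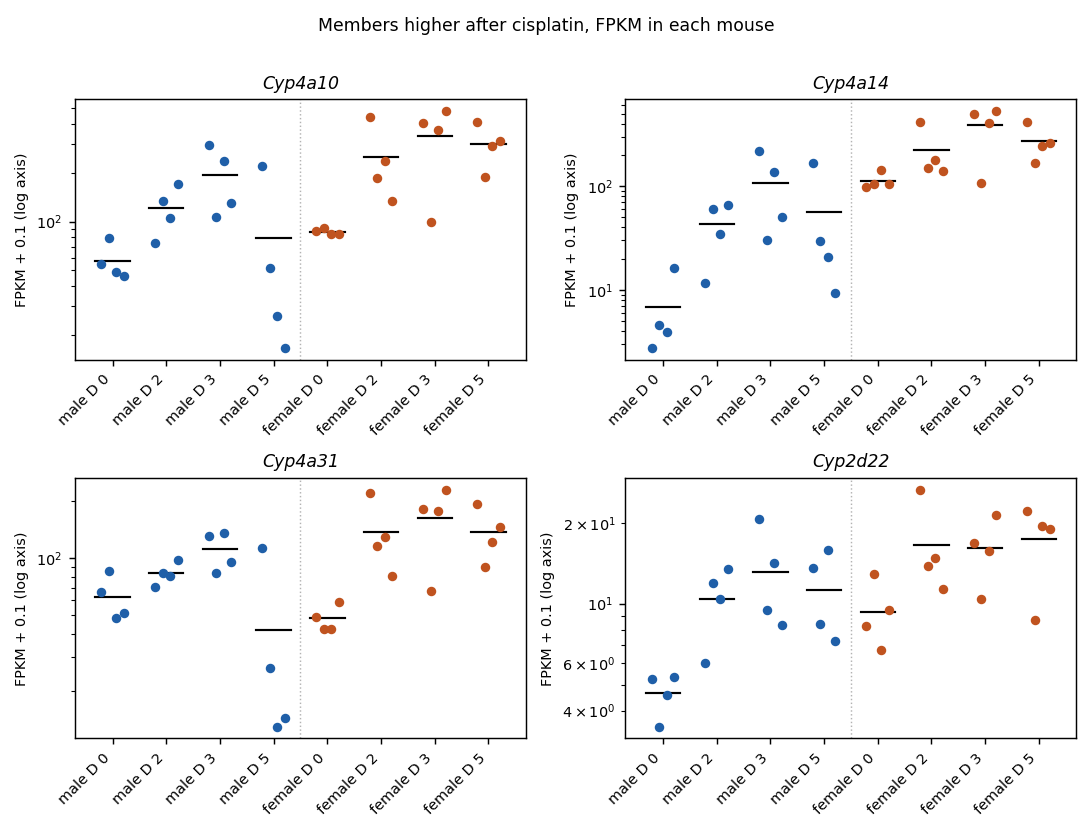
FPKM of Cyp4a10, Cyp4a14, Cyp4a31 and Cyp2d22 in each mouse (points; vertical log axis, 0.1 added), males in blue and females in orange at Days 0, 2, 3 and 5 (D), with the group mean as a line. Cyp4a14 starts at 2.66 to 16.1 FPKM in males and 98.6 to 142.6 FPKM in females, and at Day 3 it spans 29.8 to 216 FPKM in males and 108 to 525 FPKM in females.

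Whether the sexes changed differently was tested with the interaction of sex and day. At Day 2 it called 0 of 39 members and 0% of all genes (7 members had an unadjusted p below 0.05, DESeq2 called 0.123% of all genes and 1 member, Cyp2b13, whose female Day 0 counts lie mostly in mouse 2), and at Day 3 0 of 40 members and 0.0114% of all genes (10 unadjusted, DESeq2 0). For Cyp4a14 the log2 difference of the changes, male minus female, was 1.65 at Day 2 and 2.20 at Day 3, and neither passed the test. At Day 5, 1 of 38 members was called against 0.231% of all genes: Cyp4b1 (log2 fold change -5.17, SE 0.83, edgeR adjusted p = 0.0210), which had a log2 fold change of -5.00 in males and 0.15 in females at Day 5. That call was kept in 7 of 16 fits that leave out 1 mouse, and lost in the other 9 (in males Day 0 mice 1 and 2 and Day 5 mice 2 to 4, in females mouse 2 of Day 0 and mice 1, 3 and 4 of Day 5), with an edgeR adjusted p of up to 0.0801. Without female Day 5 mouse 2 it was kept, and Cyp2d9 was called as well, with 0.943% of all genes. Without male Day 5 mouse 1, 9 members were called, all with a negative difference, with 4.93% of all genes. Without female Day 0 mouse 1 there were 3 (0.186% of all genes), and without Day 0 mouse 4 there were 2, with 0.507% of all genes when the male mouse was left out and 0.389% when the female one was.

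At male Day 5, Cyp2j13, Cyp4b1 and Cyp4a12a fell furthest. Of 32 members tested, 1 was called higher and 9 lower, against 3.83% and 3.69% of all genes, and the median log2 fold change was -0.68 over the members and 0.04 over all genes. By role, the calls were 1 higher and 2 lower of 14 fatty acid omega-hydroxylases, 2 lower of 7 tested arachidonate epoxygenases and hydroxylases, 4 lower of 8 tested drug and small-molecule enzymes, and the vitamin D enzyme Cyp2r1.
Cyp2j13 fell to 0.901, 0.296, 0.395 and 1.14 FPKM (log2 fold change -6.26, SE 0.46, edgeR adjusted p = 0.000896). Cyp4b1 fell to the values given above (log2 fold change -5.00, SE 0.69, edgeR adjusted p = 0.00511). Cyp4a12a went from 61.0, 35.9, 16.2 and 26.7 FPKM at Day 0 to 1.21, 0.572, 1.32 and 1.53 FPKM at Day 5 (log2 fold change -4.93, SE 0.48, edgeR adjusted p = 0.00246). These are 3 of the 4 genes that were higher in males at Days 2 and 3, and none overlapped between Day 0 and Day 5. Cyp2d12 (chr15:82555072-82560403, plus strand), of the drug-oxidising Cyp2d subfamily, went from 25.6, 24.3, 18.2 and 12.1 FPKM to 4.38, 0.635, 0.824 and 1.53 FPKM (log2 fold change -3.40, SE 0.58, edgeR adjusted p = 0.00967). These 4 genes kept their call whichever single mouse was left out.

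The other 5 that fell lost their call in at least 1 fit that left out a mouse. Cyp2j5 (chr4:96628773-96664154, minus strand), the abundant renal arachidonate epoxygenase, went from 442, 428, 342 and 288 FPKM to 170.0, 40.4, 21.7 and 15.1 FPKM (log2 fold change -2.61, SE 0.72, edgeR adjusted p = 0.0348). Mouse 1 of Day 5 measured far more than the other Day 5 mice. Cyp2d9 (chr15:82433437-82456845, plus strand), which hydroxylates testosterone, went from 82.7, 78.8, 63.5 and 28.6 FPKM to 22.3, 9.04, 4.62 and 6.48 FPKM (log2 fold change -2.59, SE 0.53, edgeR adjusted p = 0.0142). Cyp2a4 (chr7:26307169-26315088, plus strand), another testosterone hydroxylase, went from 206, 258, 271 and 48.7 FPKM to 54.9, 37.5, 10.3 and 20.7 FPKM, where mouse 4 of Day 0 overlapped with mouse 1 of Day 5 (log2 fold change -2.69, SE 0.63, edgeR adjusted p = 0.0207).
Cyp2e1 went from 817, 696, 395 and 709.8 FPKM to 84.6, 146, 401 and 85.2 FPKM, and mouse 3 came up to just above the lowest Day 0 mouse on the FPKM scale (log2 fold change -1.89, SE 0.55, edgeR adjusted p = 0.0407). Cyp2r1 (chr7:114549682-114562972, minus strand), a vitamin D 25-hydroxylase, was low throughout, with 0.837, 0.321, 1.01 and 0.530 FPKM at Day 0 and 0.160, 0.146, 0.239 and 0.140 FPKM at Day 5 (log2 fold change -1.995, SE 0.58, edgeR adjusted p = 0.0408). Cyp2d9 lost its call without Day 5 mouse 2, Cyp2j5 and Cyp2e1 in 6 of 8 such fits, Cyp2a4 in 5 and Cyp2r1 in 7. Cyp4a14, the gene called higher, measured 167, 29.2, 20.5 and 9.19 FPKM, with mouse 1 far above the rest and mouse 4 within the Day 0 range (log2 fold change 3.07, SE 0.94, edgeR adjusted p = 0.0474), and it lost its call in 7 of 8. The replicate block ended the calls of Cyp2e1, Cyp2r1 and Cyp4a14, the fit without a filter on low counts those of Cyp2j5, Cyp2r1 and Cyp4a14, and the removal of mitochondrial genes that of Cyp4a14. Over the fits that leave out 1 mouse the number of members called at male Day 5 ran from 4 (without Day 5 mouse 2, with 3.28% of all genes called) to 12 (without Day 5 mouse 1, with 12% of all genes called), all of them lower in both fits.

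Not every member fell with them. Cyp2j6 lay at 5.95 to 9.81 FPKM at Day 0 and 8.96 to 11.0 FPKM at Day 5 (log2 fold change 0.26, SE 0.19, edgeR adjusted p = 0.358), and Cyp2s1 at 2.35 to 3.08 FPKM and 4.80 to 5.52 FPKM (log2 fold change 0.89, SE 0.17, edgeR adjusted p = 0.0120), below the fold threshold. Cyp4f13, the most abundant Cyp4f gene, measured 11.0, 9.94, 17.9 and 10.1 FPKM at Day 0 and 7.95, 6.199, 7.53 and 11.4 FPKM at Day 5 (log2 fold change -0.59, SE 0.26, edgeR adjusted p = 0.133). Cyp2c23, a renal arachidonate epoxygenase, measured 8.91, 6.72, 3.82 and 6.60 FPKM and 15.6, 4.35, 3.51 and 1.72 FPKM, mouse 1 being above all Day 0 mice, mouse 2 among them and mice 3 and 4 below all of them (log2 fold change -0.03, SE 0.59, edgeR adjusted p = 0.974). Cyp4a10 measured 220.3, 51.7, 26.2 and 16.5 FPKM at Day 5, mouse 1 above every Day 0 mouse, mouse 2 among them and mice 3 and 4 below them, and its log2 fold change of 0.44 was not called.

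Proximal tubule markers moved in the same libraries. Of 12 such markers all 12 had a negative log2 fold change at male Day 5, 6 were called lower and 0 higher, and their median was -2.21. Slc34a1, the phosphate carrier of this segment, gave log2 fold change -2.93, SE 0.73, edgeR adjusted p = 0.0256, with 33422, 3136, 1497 and 1287 counts in the 4 mice against 86492 to 155796 at Day 0. The summed FPKM of the 12 markers, among them the very abundant Kap, was 1447 to 7654 at male Day 5 and 19849 to 117687 at male Day 0. The 6 adipocyte markers summed to 572 to 3417 FPKM at male Day 5 and 268 to 1506 FPKM at male Day 0, and 0 were called by edgeR (3 with an unadjusted p below 0.05, DESeq2 2). Of 5 tested adrenal cortex markers 4 were called higher, with summed FPKM of 12.3 to 49.002 against 1.67 to 5.83. The parts of these tissues and of the mitochondrial share in the members' results were not tested.

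Set against Slc34a1 in the same library, which needs no scaling between libraries, the 10 called members did not move alike. Cyp4b1 had 67.1, 65.9, 66.3 and 44.5 counts per 100 Slc34a1 counts at male Day 0 and 13.1, 15.0, 18.6 and 22.0 at Day 5, lower in all 4. Cyp2j13 went from 5.65, 5.14, 3.95 and 3.99 to 0.224, 0.287, 0.735 and 2.80, again lower in all 4. Cyp4a14 went from 0.127, 0.230, 0.171 and 0.864 to 23.1, 15.7, 21.2 and 12.5, higher in all 4. The other 7 overlapped. Cyp2j5 was at 13.9 to 19.8 at Day 0 and 18.6 to 21.2 at Day 5, and Cyp2e1 at 14.8 to 32.3 and 9.70 to 343. These ratios show unequal change between 2 transcripts and carry no test. The 10 members were taken because they were called in this comparison, and Slc34a1 was itself called lower in it. The share of all genes without overlap on this ratio was not computed.

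**Figure D4:**
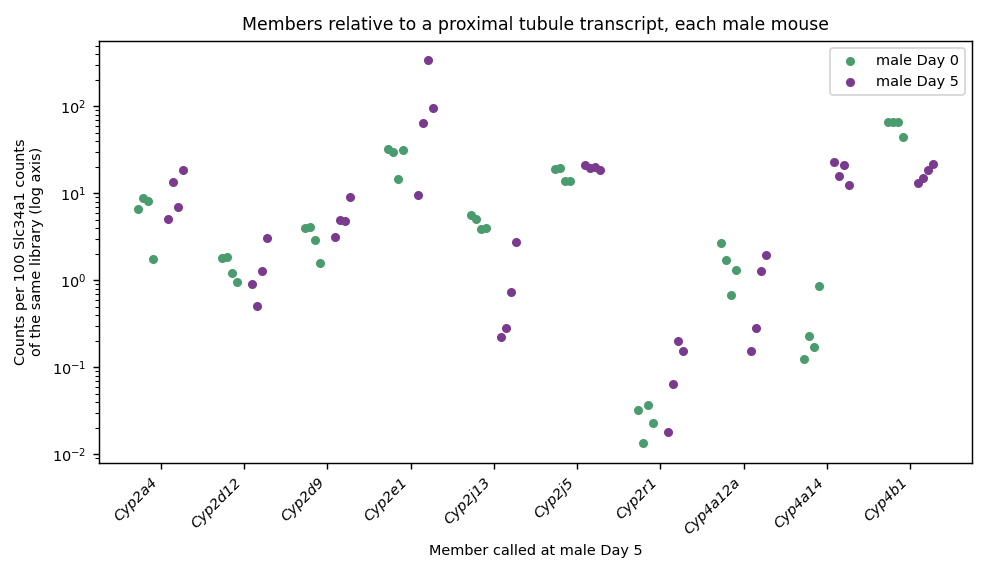
Counts of each member called at male Day 5 per 100 Slc34a1 counts of the same library (vertical, log axis), 1 point per mouse, male Day 0 in green and male Day 5 in purple. Cyp4b1 and Cyp2j13 lie lower and Cyp4a14 higher at Day 5 in all 4 mice, and the other 7 members overlap. The share of all genes without overlap on this ratio was not computed.

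**Figure D5:**
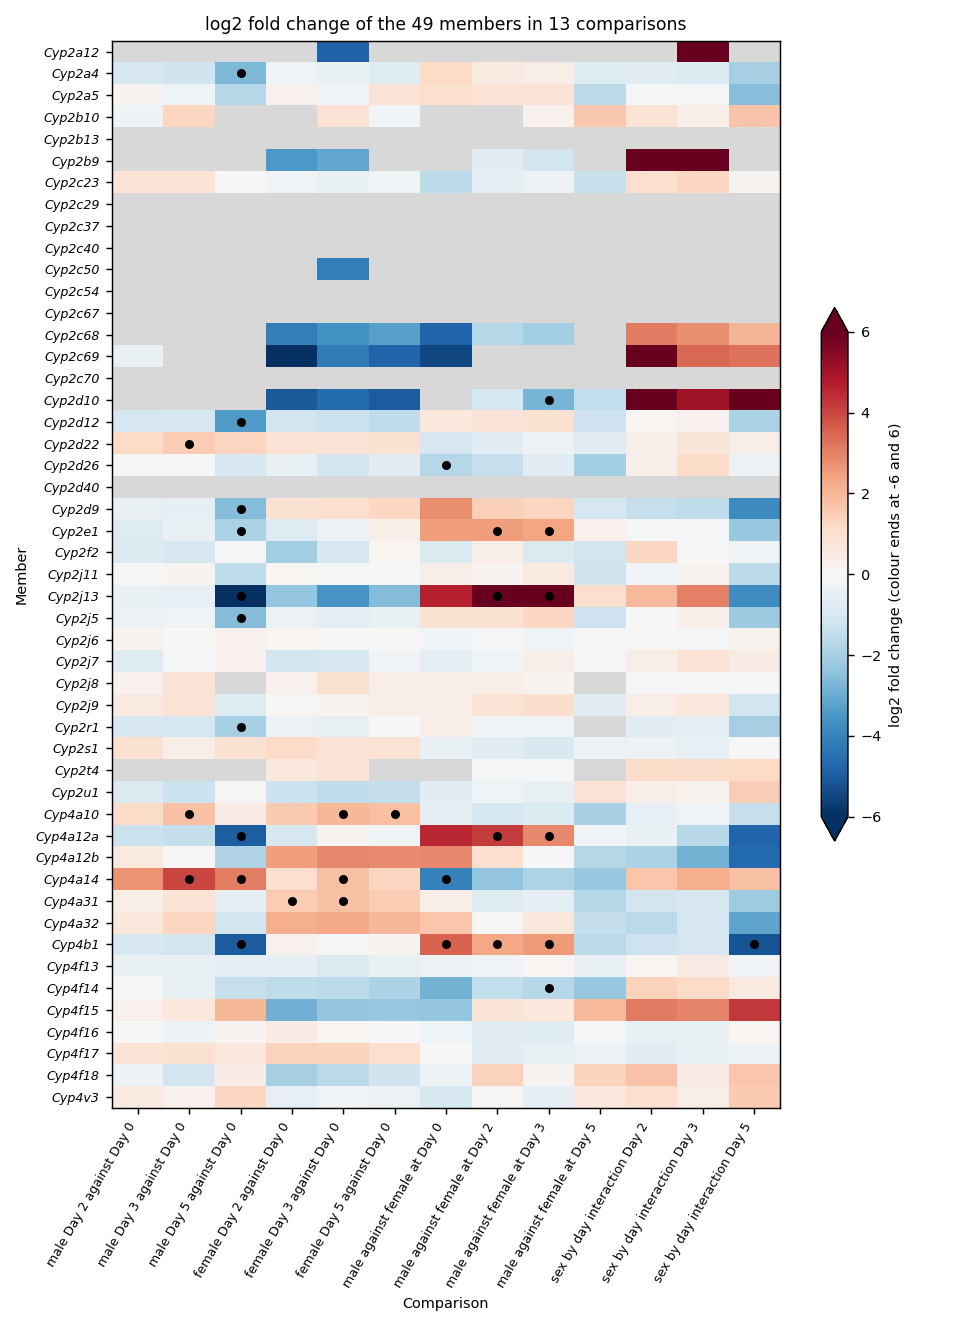
Log2 fold change (colour, ending at -6 and 6) of the 49 members (rows) in the 13 comparisons (columns), with a black dot where edgeR called the gene and grey where counts were too low to test. The dots gather in male Day 5 and in the Cyp4a and Cyp4b1 rows, and most Cyp2c rows are grey.

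Of the 49 members, 16 were called in at least 1 of the 13 comparisons, 25 were tested and called in none, and 8 did not pass edgeR's filter. Of all genes tested in any comparison, 11.7% were called in at least 1. The 25 included 5 of the 6 Cyp4f genes, 5 of the 7 Cyp2j genes, Cyp2a5, Cyp2f2, Cyp2u1 and Cyp4v3. Cyp2s1 passed the adjusted threshold but not the fold threshold in females at Day 2 (log2 fold change 1.15, SE 0.22, edgeR adjusted p = 0.0378), from 3.33, 3.69, 3.77 and 3.67 FPKM to 9.62, 7.46, 9.14 and 5.51 FPKM, without overlap. Cyp4a12b in females went from 0.766, 0.406, 0.0633 and 0.751 FPKM at Day 0 to 5.22, 0.648, 5.38 and 3.70 FPKM at Day 3 and missed the adjusted threshold (log2 fold change 2.88, SE 0.78, edgeR adjusted p = 0.0554).

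The genes around the members in their pathways were counted from lists of pathway partners. Of 18 genes of electron transfer and haem synthesis or breakdown, all tested, 2 were called lower at male Day 5, Cyb5a (-1.88 on the log2 scale) and Cpox (-1.73), and 0 in the other 12 comparisons by edgeR, where 1 to 10 had an unadjusted p below 0.05 and DESeq2 called 0 to 2. Por itself measured 52.3 to 83.1 FPKM in the male Day 0 mice. Of 14 genes that release arachidonate or act on its products, 13 or 14 were tested. At male Day 5, 5 were called higher and 1 lower, at male Day 3, female Day 2 and female Day 5 1 was higher, at female Day 3 2 were higher, and between the sexes at Day 3 1 was lower in males. In the other 7 comparisons edgeR called 0, with 3 to 8 at an unadjusted p below 0.05 and 0 to 4 called by DESeq2.
Ephx1, the microsomal epoxide hydrolase, was the gene called most often, higher in 5 of the 6 comparisons with Day 0. It measured 19.5 ± 4.52 FPKM (mean ± SD, n = 4) at male Day 0 and 117 ± 23.6 FPKM at male Day 5 (log2 fold change 2.56, SE 0.26, edgeR adjusted p = 0.00371). In females it went from 26.9 ± 9.28 FPKM to 219 ± 98.6 FPKM at Day 2 (log2 fold change 3.04, SE 0.42, edgeR adjusted p = 0.0114). Ephx2, the soluble epoxide hydrolase and the 1 gene called lower at male Day 5, was picked out after its values were seen (log2 fold change -2.41, SE 0.30, edgeR adjusted p = 0.00435).

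Of 18 receptors and transcription factors known to act on Cyp genes, 17 were tested. Ppard, a fatty acid receptor, was called lower in males at Day 2, Day 3 and Day 5 (-2.23, -2.45 and -1.95 on the log2 scale), and its change differed between the sexes at Day 3 (log2 fold change -1.73, SE 0.22, edgeR adjusted p = 0.0123). Ppara, the fatty acid receptor named above, was called higher in males at Day 2 (log2 fold change 1.78, SE 0.33, edgeR adjusted p = 0.0387) and Day 3 (log2 fold change 1.71, SE 0.34, edgeR adjusted p = 0.0132), from 2.88 ± 1.52 FPKM at Day 0 to 9.43 ± 2.0004 FPKM at Day 3. Prlr, the prolactin receptor, was called lower in males than in females at Day 0, Day 2 and Day 3 (-4.26, -3.21 and -2.55) and lower in females at Day 5 against Day 0 (-1.72). Esr1 was higher in males at Day 3 (1.83), which completes the calls of this list. In the other 5 comparisons edgeR called 0, with 2 to 6 at an unadjusted p below 0.05 and 0 to 1 called by DESeq2.

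Of 23 genes of other Cyp families, 11 to 18 were tested. At male Day 5, 2 were called higher, Cyp11b1 and Cyp21a1, both enzymes of the adrenal cortex, and 2 lower, Cyp51 and Cyp7b1. Cyp7b1, which hydroxylates oxysterols and steroids, was the male-high gene of this list, with 43.5 to 77.6 FPKM in males and 0.973 to 1.33 FPKM in females at Day 3 (log2 fold change 5.78, SE 0.22, edgeR adjusted p = 2.68e-06), 29.9 to 85.6 FPKM and 0.803 to 1.02 FPKM at Day 2 (log2 fold change 6.16, SE 0.34, edgeR adjusted p = 9.43e-06) and a log2 fold change of -4.39 at male Day 5. The others called were Cyp1a1, lower at male Day 3, Cyp17a1, lower in males at Day 3, and Cyp11a1 and Cyp21a1, lower in males at Day 5. In the other 8 comparisons edgeR called 0, with 1 to 7 at an unadjusted p below 0.05 and 0 to 2 called by DESeq2.

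Of 6 markers of the injured tubule, 1 was called higher at male Day 3 and at male Day 5, and 3 at female Day 3, Lcn2 being called in each (3.53, 4.19 and 4.396 on the log2 scale). In males against females at Day 3, 3 were called lower (Havcr1, Krt20 and Spp1), and in the other 9 comparisons edgeR called 0, with 0 to 3 at an unadjusted p below 0.05 and 0 to 3 called by DESeq2. The proximal tubule markers called outside male Day 5 were Miox and Slc7a13, both lower at female Day 3, and Slc7a13 or Kap, higher in males than in females at Days 2, 3 and 5. Markers of the thick limb (3), collecting duct (3) and endothelium (4) had 0 calls by edgeR in all 13 comparisons, with 0 to 4 at an unadjusted p below 0.05 and 0 to 1 called by DESeq2. Of the leukocyte markers (7), edgeR called Ptprc, higher in males at Day 5, where DESeq2 called 2. In the other 12 comparisons edgeR called 0 of them, with 0 to 3 at an unadjusted p below 0.05 and 0 to 1 called by DESeq2. By edgeR, hepatocyte markers were called against Day 0 through Ttr alone, lower in males on all 3 days, where DESeq2 called 2, 1 and 2. In females all hepatocyte markers tested were lower, 5 at Day 2, 9 at Day 3 and 7 at Day 5. Of these 5, 5 and 6 had an unadjusted p below 0.05, and DESeq2 called 1 on each day. Adipocyte markers were called by edgeR through Retn, lower at male and female Days 2 and 3, with Cfd, Adipoq and Lep lower at male Day 3. Retn and Lep were lower in males than in females at Day 3, and 5 of 6 tested adrenal cortex markers were lower in males at Day 5. At Day 3 edgeR called 0 of these 6 between the sexes, with 6 at an unadjusted p below 0.05 and 6 called by DESeq2.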

How the data were processed

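Whole-kidney RNA of 32 mice was sequenced as paired-end reads of 150 bases. The deposited tables hold unscaled read counts for 54532 rows, and FPKM of the same libraries, in which the authors divided each count by gene length and an effective library size. HTSeq and DESeq2 are named in the submitters' processing notes without version or role. The notes list GRCm39, the study's methods GRCm38. The coordinates match GRCm38: 53462 of the 54409 gene IDs found in GENCODE M21 sit at the same place, and so do 45 of the 49 members. Coordinates are printed as the files give them.

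The quasi-likelihood test of edgeR 4.0.16 (R 4.3.3) was run on the counts (TMM, filterByExpr, robust fit on the groups compared) in 13 comparisons: each day against Day 0 in each sex, male against female on each day (positive is higher in males), and the interaction of sex with Day 2, 3 and 5. A call needed a Benjamini-Hochberg adjusted p below 0.05 over all genes tested and an absolute log2 fold change over 1.5. The SE is the log2 fold change divided by the root of F. FPKM served for levels only. The study gives each library as 1 mouse.

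Alternatives were DESeq2 1.42.0, its size factors in edgeR, no filter on low counts, 1 fit over all 8 groups, mouse number as a block, a fold threshold of 1, removal of mitochondrial genes and each mouse left out. The scripts were tested on simulated counts. Members, lists and tests were chosen with earlier results of these data known. Values in every mouse of groups compared are given for members called and for the most abundant of each subfamily of at least 2 members, and of the pathway lists the genes with most calls were named. Haem stretches were read with Biopython 1.88.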

Additional observations from a re-analysis of the deposited data

Results flagged for a closer look

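Of 146 groups of 4 mice examined for a mouse far from the other 3 (Dixon's 95% limit, FPKM), 19 were flagged, and chance flags about 1 in 20. Male Day 5 mouse 1, the library with 4153 Xist counts and the lowest mitochondrial share of its group, was the high mouse for Cyp4a14 (167 FPKM), Cyp4b1 (109 FPKM), Cyp2j5 (170.0 FPKM), Cyp4a31 (113 FPKM) and Cyp2d10 (0.581 FPKM). Female Day 0 mouse 2, the library with most Alb counts, was high for Cyp2d10 (70.7 FPKM) and Cyp2b13 (20.4 FPKM). It held 88.4% and 95.6% of all counts of these genes, so their 2 flags there follow from that share. These 2 flags are among the 19 and cannot be set against the chance rate. Without this library Cyp2b13 had a mean count of 2.10, below the minimum of 10 for members. Female Day 3 mouse 2, second in Alb, was high for Cyp2d12 (11.4 FPKM), Cyp4f14 (3.15 FPKM) and Cyp2b13 (0.343 FPKM).

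Female Day 0 mouse 1, with 221 Y-linked counts, was high for Cyp2j13 (6.93 FPKM). Female Day 2 mouse 1 was high for Cyp4a14 (415 FPKM) and Cyp4b1 (269 FPKM). The other mice that stood apart were male Day 0 mouse 4 and female Day 0 mouse 3 for Cyp4a14 (16.1 and 143 FPKM), male Day 2 mouse 4 for Cyp2j5 (203 FPKM), male Day 3 mouse 4 for Cyp2r1 (0.504 FPKM), female Day 2 mouse 4 for Cyp4f14 (2.94 FPKM) and male Day 0 mouse 3 for Cyp4f13 (17.9 FPKM).

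The change of Cyp4b1 from Day 0 to Day 5 differed between the sexes by the interaction test, with a male minus female log2 difference of -5.17.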

How the results depend on the processing

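The number of members called moved with the fit, and so did the share of all genes called, given here after each group of counts. The DESeq2 Wald test called 1 at male Day 2 (2.92%), 6, 7 and 4 at female Days 2, 3 and 5 (5.44%, 6.12% and 2.36%), 9, 10 and 2 between the sexes at Days 0, 3 and 5 (1.19%, 2.88% and 3.06%; at Day 3 4 higher and 6 lower in males), and 1 and 6 in the interactions of Days 2 and 5 (0.123% and 2.75%), and it gave no adjusted p for Cyp4b1 at male Day 5. A single fit over all 8 groups called 1 at male Day 2 (2.68%), 13, 10 and 9 in females (6.31%, 6.49% and 3.68%), 13, 3 and 4 between the sexes at Days 0, 3 and 5 (1.78%, 0.642% and 2.99%), and 8 in the Day 5 interaction (4.06%). Without a filter on low counts 3 were called at female Day 2 and 3 at female Day 5 (1.71% and 0.456%). With an absolute log2 fold change over 1, 1, 6 and 2 were called at male Day 2, male Day 3 and female Day 2 (1.72%, 9% and 1.9%), and of the 6 at male Day 3 3 were higher and 3 lower. The fits of the 2 groups alone had called 0.716% and 3.72% of all genes at male Days 2 and 3, 1.41%, 2.48% and 0.228% in females, and 0.362%, 1.93% and 0.236% between the sexes at Days 0, 3 and 5.

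The mouse number as a replicate block gave 0 calls at male Day 3 (0.333%) and in females on all 3 days (0.314%, 0% and 0.203%), 8 between the sexes at Day 0 (0.754%) and 2 in the Day 5 interaction (0.461%). The numbers were not taken to pair the mice: over 40 pairs the correlation of deviations ran from -0.571 to 0.643, and no comparison had all of its pairs over 0.1. Between the sexes at Day 0, where the block raised the calls from 3 to 8, mice 1, 3 and 4 correlated at 0.395, 0.643 and 0.576 and mouse 2 at -0.144. With female Day 0 mice 1 and 2 both left out, an alternative chosen after seeing the data, 0 members were called in females on all 3 days (0.00575%, 0% and 0.0291%), between the sexes at Day 0 (0%) and in the Day 5 interaction (0.0279%).

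Leaving out each mouse in turn gave 0 to 1, 0 to 5 and 4 to 12 calls in males at Days 2, 3 and 5, and 0 to 9, 0 to 9 and 0 to 6 in females. Between the sexes it gave 0 to 3, 3 to 7, 6 to 7 and 0 to 15 at Days 0, 2, 3 and 5 (7 at Day 2 without female Day 2 mouse 1, with 1.02%, and 15 without male Day 5 mouse 1), and in the interactions 0, 0 and 0 to 9. Over the alternatives for single members, 364 kept direction and call, 132 lost the call and 0 reversed. The 364 include the fits read at a fold threshold of 1, where a called member cannot lose its call. The causes were not tested. Low counts limit the 8 members tested in no comparison, and tested ones such as Cyp2t4, Cyp2j8 and Cyp2r1 (mean counts 11.4, 13.6 and 24.8).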

Other observations

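Some members passed the adjusted threshold (edgeR, Benjamini-Hochberg) at folds below that used for calls. At male Day 3, 10 of 34 tested passed it and 3 were called. Between the sexes at Day 3, 14 of 38 passed it and 6 were called. The share of all genes passing that threshold alone was not computed. Cyp2j9, of the epoxygenase subfamily, measured 5.81, 4.82, 6.97 and 4.91 FPKM in males and 2.36, 2.90, 2.13 and 3.30 FPKM in females at Day 3 (log2 fold change 1.06, SE 0.16, edgeR adjusted p = 0.00287). In males it had measured 3.70, 3.27, 2.70 and 2.79 FPKM at Day 0 (log2 fold change 0.86, SE 0.17, edgeR adjusted p = 0.0141). Cyp2u1, a fatty acid hydroxylase, went from 1.79, 1.44, 3.77 and 1.72 FPKM at male Day 0 to 0.979, 0.826, 0.855 and 0.865 FPKM at Day 3 (log2 fold change -1.30, SE 0.30, edgeR adjusted p = 0.0198). These genes were picked after their values were seen.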
